A study of Mus musculus with 2 samples.

Results

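The 7 genes described here act in ferroptosis, a form of cell death driven by oxidised membrane lipids. They are Slc7a11 and Slc3a2 for cystine import, Gpx4 and Aifm2 for repair and trapping of lipid radicals, Acsl4 and Lpcat3 for loading polyunsaturated fatty acids into membranes, and Ptgs2, often read as a transcript that accompanies ferroptosis. They were taken by symbol from the gene list of the count files, and all 7 were found among 31053 genes. The series profiled cells of syngeneic fibrosarcomas, tumours of connective tissue, from under the skin of WT C57BL/6 mice by droplet-based single-cell RNA sequencing with the 10x Genomics 3' v3 chemistry. The design text sets tumours given autologous erythrocytes in buffered saline against tumours given saline alone. Each arm was 1 library, titled Blood and titled Control, and the sources used here do not say how many animals stand behind a library, whether they were pooled, or how long after injection the tumours were taken. The treatment labels go against the titles, since the library titled Blood is labelled PBS injected and the library titled Control is labelled Erythrocyte injected. Libraries are therefore called by their titles, and no difference between them is read as an effect of erythrocytes.

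Ferroptosis follows when iron-catalysed peroxidation of polyunsaturated phospholipids outruns its repair. Cystine taken up by the system xc- exchanger is reduced to cysteine for glutathione, which the selenoenzyme GPX4 spends to reduce lipid hydroperoxides, and FSP1, the product of Aifm2, regenerates ubiquinol as a separate radical trap. Tumour-infiltrating macrophages clear dying cells and recycle haem iron, and neutrophils make oxidants and prostanoids, so both meet lipid oxidation in tumours.

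The stretches upstream of the RefSeq starts of both subunit genes of the exchanger are shown because the level of Slc7a11 varied widely over cell classes while that of its partner Slc3a2 varied little. They come from RefSeq on GRCm38.p6 and run 5′ to 3′ on the minus strand, at chr3:50443614-50443863 for Slc7a11 and at chr19:8713898-8714147 for Slc3a2, where the stretch lies inside the GENCODE span of the gene. Capitals mark matches to TGATGNAA, the core of the amino acid response element bound by ATF4 with C/EBP partners, searched on both strands like every motif below.
Slc7a11: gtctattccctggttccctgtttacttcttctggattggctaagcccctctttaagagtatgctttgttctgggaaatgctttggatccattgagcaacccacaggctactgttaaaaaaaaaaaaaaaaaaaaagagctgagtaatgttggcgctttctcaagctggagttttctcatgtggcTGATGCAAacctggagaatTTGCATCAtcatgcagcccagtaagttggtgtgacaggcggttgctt
Slc3a2: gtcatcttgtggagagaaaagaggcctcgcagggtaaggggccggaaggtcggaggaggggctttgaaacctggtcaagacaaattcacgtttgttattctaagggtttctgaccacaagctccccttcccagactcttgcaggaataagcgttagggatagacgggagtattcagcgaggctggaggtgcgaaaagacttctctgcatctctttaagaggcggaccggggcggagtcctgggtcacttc
The Slc7a11 stretch holds the motif at both -66 to -59, on the strand of the gene, and -47 to -40, on the opposite strand, counted from the start. The Slc3a2 stretch holds none. Of 32851 such stretches of 250 bases in the mouse genome, 3.45% hold TGATGNAA, and a match is a description of letters, not a bound site. TGACNNNGC, the core of the antioxidant response element, is in 10.2% of the stretches and in none of the 7 genes' own. TGACGT, a cAMP response element core in 6.47% of the stretches, is upstream of Acsl4 at -119 to -114. Gpx4 has 4 such stretches. A single TGACGT site lies in a pair of overlapping ones, at -33 to -28 from one start and -127 to -122 from the next. The first and last Gpx4 stretches hold none. CACGTG, an E-box, is in 6.02% of the stretches and in none of the 7 genes' own.

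On GRCm38 with GENCODE M21, all 7 are protein-coding. Slc7a11 spans chr3:49892526-50443614 (minus strand), Slc3a2 chr19:8706882-8723369 (minus), Gpx4 chr10:80047166-80056439 (plus), Aifm2 chr10:61715263-61739260 (plus), Acsl4 chrX:142317993-142390535 (minus), Lpcat3 chr6:124663027-124704418 (plus) and Ptgs2 chr1:150100031-150108227 (plus). Slc7a11 overlaps the predicted genes Gm37692 and Gm37498 on its strand, and Gpx4 has the annotated pseudogene Gpx4-ps2, so their counts could in part be split with or shared by those loci.

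The libraries held 115066023 UMIs (unique molecular identifiers, 1 per captured transcript) over 12057 barcodes titled Blood and 115272096 UMIs over 9475 barcodes titled Control. After filtering, 11128 cells titled Blood and 8718 cells titled Control were kept, with medians of 6714 and 9399 UMIs per cell. Of 349 barcodes present in both libraries, 212 titled Blood and 112 titled Control were shallow copies of a deep cell of the other library and were left out. Clusters were named from marker lists, and 8 classes had at least 50 kept cells in each library. Every marker of each class name reached 10 CPM in that class in both libraries. The classes differed most in neutrophil-like cells, with 1774 cells titled Blood (15.9%) and 129 cells titled Control (1.48%), and macrophage-like cells were 5713 titled Blood (51.3%) and 5593 titled Control (64.2%). Levels are in CPM, the UMIs of a gene scaled to a common total of UMIs for each class and library. Intervals are exact, at 95%, and cover counting error only, since there is no replicate in either group and no test between libraries was possible. A member is called higher or lower where the log2 ratio of CPM plus 5, titled Blood over titled Control, is past 1.5-fold, among genes with at least 10 CPM and 10 UMIs in either library.

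With all kept cells of a library summed, Slc7a11 and Ptgs2 were higher in the library titled Blood. These were 2 of the 7 members, beside 1.08% of 8081 measured genes that were higher by the same rule. Slc7a11 was at 140 CPM titled Blood and 82.9 CPM titled Control, a ratio of 1.69 (1.65 to 1.74), and Ptgs2 was at 156 CPM titled Blood and 81.3 CPM titled Control, a ratio of 1.91 (1.87 to 1.96). The other 5 members had ratios between 0.993 for Gpx4 and 1.18 for Acsl4. In such a sum, more cells of a class and more RNA per cell cannot be told apart.

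The neutrophil-like class moved with both differences. It gave 32.8% of all Slc7a11 UMIs in the library titled Blood and 5.16% in the library titled Control, and for Ptgs2 the shares were 43.4% titled Blood and 5.55% titled Control. Without neutrophil-like cells, Slc7a11 was at 97.0 CPM titled Blood and 78.8 CPM titled Control, a ratio of 1.23 (1.20 to 1.27), and Ptgs2 was at 90.7 CPM titled Blood and 77.0 CPM titled Control, a ratio of 1.18 (1.14 to 1.21). No member was then past 1.5-fold in either direction, beside 1.29% of 8055 measured genes.

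**Figure D1:**
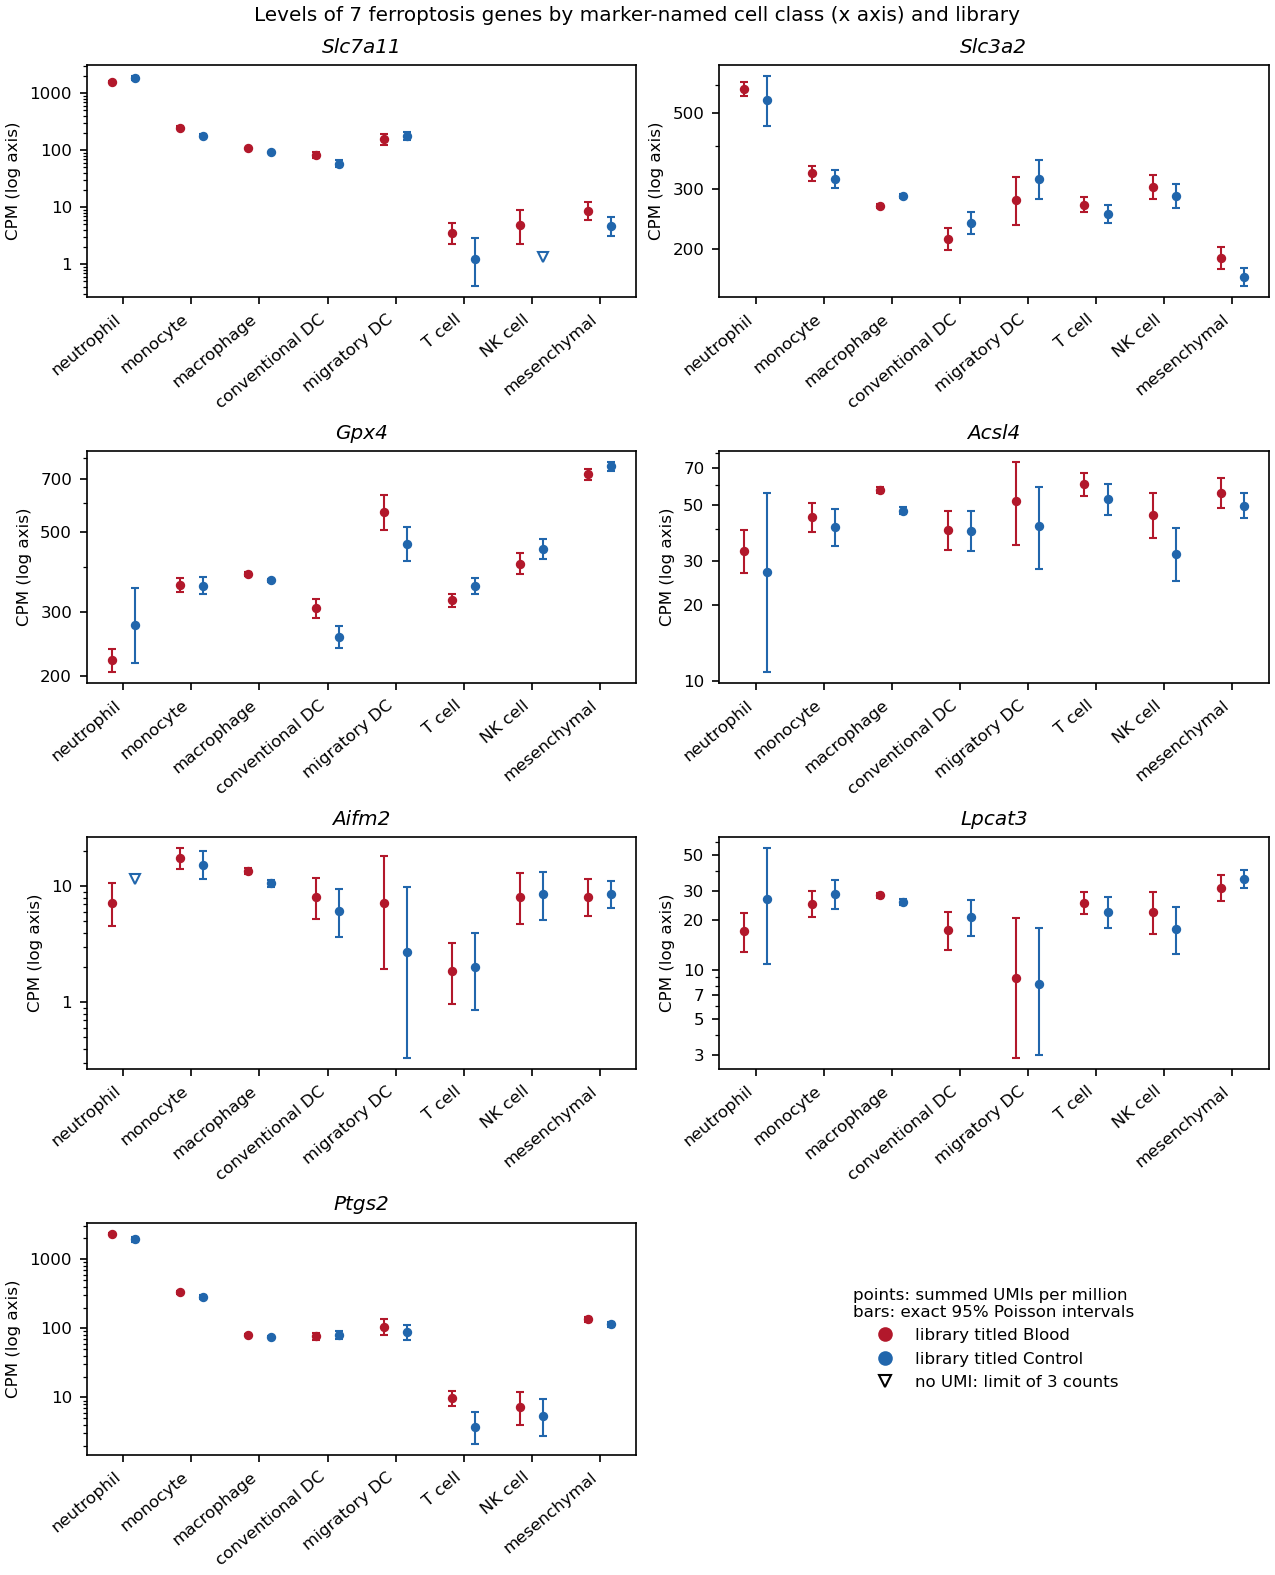
Level of each of the 7 genes (CPM, log axis) in the 8 cell classes, titled Blood left of titled Control, with exact 95% Poisson intervals and triangles at the 3-UMI floor where a library had 0 UMIs. Slc7a11 and Ptgs2 stand highest in neutrophil-like cells of both libraries, at 1578 and 1833 CPM for Slc7a11 and at 2315 and 1937 CPM for Ptgs2, while Slc3a2, Gpx4, Acsl4 and Lpcat3 lie within a narrower band.

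Slc7a11 encodes xCT, the light chain that carries cystine in exchange for glutamate. Its level was highest in neutrophil-like cells, at 1578 CPM (1535 to 1622) titled Blood and 1833 CPM (1672 to 2005) titled Control. Next came monocyte-like cells at 247 CPM titled Blood and 180 CPM titled Control, migratory dendritic (DC)-like cells at 155 CPM titled Blood and 178 CPM titled Control, macrophage-like cells at 107 CPM titled Blood and 91.9 CPM titled Control, and conventional DC-like cells at 83.4 CPM titled Blood and 57.7 CPM titled Control. In the library titled Blood each of these 5 neighbours in the order was apart beyond its counting interval. In the library titled Control the monocyte-like and migratory DC-like intervals overlapped.

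Lymphoid and stromal cells held little Slc7a11. Mesenchymal-like cells were at 8.64 CPM titled Blood and 4.61 CPM titled Control, and T cell-like cells at 3.58 CPM titled Blood and 1.26 CPM titled Control. NK cell-like cells were at 4.78 CPM titled Blood and had 0 UMIs titled Control, where the exact interval reaches 1.66 CPM. The neutrophil genes S100a8 and S100a9 summed to 67.8 CPM in T cell-like cells titled Blood and 2.52 CPM in those titled Control, and to 108 CPM in NK cell-like cells titled Blood and 5.86 CPM in those titled Control. If all S100a8 and S100a9 came with neutrophil RNA, that RNA would carry 2.28 CPM of Slc7a11 into the T cell-like class titled Blood and 0.0833 CPM into that titled Control, and 3.62 CPM into the NK cell-like class titled Blood and 0.194 CPM into that titled Control. This proportion can overstate the carried amount, since in B cell-like cells titled Blood it gives 35.1 CPM where 10.2 CPM were seen. The part of carried RNA in the low lymphoid values was not tested.

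Within the neutrophil-like class Slc7a11 was spread over most cells. At least 1 UMI was seen in 67.9% of these cells titled Blood and in 67.4% of those titled Control, although their median depths were only 1747 and 1962 UMIs. With each cell thinned to 1000 UMIs, the shares were 60.1% titled Blood and 58.1% titled Control, against 0.501% and 0.146% of T cell-like cells in the same libraries, whose unthinned median depths were 4811 and 5017 UMIs. The median was 2 UMIs per neutrophil-like cell in either library, and the highest cells held 30 UMIs titled Blood and 33 UMIs titled Control. The tenth of cells with the most Slc7a11 held 40.1% of the class's Slc7a11 UMIs titled Blood and 42.2% titled Control.

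Between libraries, the Slc7a11 ratios stayed within 1.5-fold in the 5 of these 8 classes where the gene was measured. The ratio was 0.861 (0.784 to 0.948) in neutrophil-like cells, 1.37 (1.25 to 1.51) in monocyte-like cells, 1.16 (1.13 to 1.20) in macrophage-like cells, 1.45 (1.19 to 1.76) in conventional DC-like cells and 0.869 (0.655 to 1.15) in migratory DC-like cells. The intervals of the first 4 of these classes leave out 1, but no replicate could check the differences, and most of their directions did not hold under the alternatives. The log2 ratio ran from -0.60 with doublets kept to 0.15 with separate clustering of each library in neutrophil-like cells, where it was -0.22. In macrophage-like cells, where it was 0.21, it was -0.10 with clusters at equal weight and -0.04 with separate clustering. In conventional DC-like cells separate clustering gave -1.20 in place of 0.50. In monocyte-like cells it stayed above 0 throughout, from 0.31 to 1.30. Osteoclast-like cells, with 33 cells titled Blood and 57 titled Control, were outside the 8 classes and held 11 UMIs of Slc7a11 (12.8 CPM) titled Blood and 2 UMIs (1.14 CPM) titled Control, a ratio of 11.2 (2.44 to 104).

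Slc3a2 encodes 4F2hc (CD98), the heavy chain that brings xCT and several other amino acid carriers to the cell surface. It was found in all 8 classes, the highest level being 3.11 times the lowest titled Blood and 3.28 times titled Control. It was highest in neutrophil-like cells, at 586 CPM titled Blood and 543 CPM titled Control. Macrophage-like cells were at 268 CPM titled Blood and 286 CPM titled Control, a ratio of 0.936 (0.919 to 0.953). Mesenchymal-like cells were lowest, at 188 CPM titled Blood and 166 CPM titled Control. Between these ends the monocyte-like, NK cell-like, migratory DC-like, T cell-like, macrophage-like and conventional DC-like neighbours mostly overlapped in their intervals.

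Gpx4 encodes the phospholipid hydroperoxide glutathione peroxidase. It was found in all 8 classes, with mesenchymal-like cells at the top and neutrophil-like cells, where Slc7a11 was highest, at or near the bottom. Mesenchymal-like cells were highest, at 721 CPM titled Blood and 761 CPM titled Control. Neutrophil-like cells were lowest titled Blood, at 221 CPM, and stood at 277 CPM titled Control, where conventional DC-like cells were lowest at 257 CPM and the intervals of these classes overlapped. Macrophage-like cells were at 383 CPM titled Blood and 367 CPM titled Control, and T cell-like cells at 324 CPM titled Blood and 355 CPM titled Control. The farthest ratios were 0.796 (0.624 to 1.03) in neutrophil-like cells and 1.22 (1.05 to 1.43) in migratory DC-like cells.

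Aifm2, which encodes FSP1, was a sparse transcript and was measured in 2 of the 8 classes. Monocyte-like cells were at 17.5 CPM titled Blood and 15.3 CPM titled Control. Macrophage-like cells were at 13.6 CPM titled Blood and 10.6 CPM titled Control, a ratio of 1.28 (1.17 to 1.40). The other 6 classes were below 10 CPM in both libraries. The few osteoclast-like cells, outside the 8 classes, were at 23.2 CPM titled Blood and 34.2 CPM titled Control, a ratio of 0.678 (0.387 to 1.14). Neutrophil-like cells had 7.15 CPM titled Blood and 0 UMIs titled Control, where the exact interval reaches 14.2 CPM, so no difference was detectable at this depth.

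Acsl4 encodes the acyl-CoA synthetase that activates arachidonic and adrenic acid, and Lpcat3 the acyltransferase that places polyunsaturated acyl chains into phospholipids. Both were found in every class. The highest Acsl4 level was 1.84 times the lowest titled Blood and 1.95 times titled Control. For Lpcat3 the highest was 3.53 times the lowest titled Blood and 4.35 times titled Control. Acsl4 was at 60.2 CPM titled Blood and 52.6 CPM titled Control in T cell-like cells, and at 57.2 CPM titled Blood and 47.3 CPM titled Control in macrophage-like cells, a ratio of 1.21 (1.16 to 1.26). NK cell-like cells had the farthest Acsl4 ratio, 1.42 (1.03 to 1.96), and neutrophil-like cells the lowest levels, 32.6 CPM titled Blood and 26.9 CPM titled Control. In both libraries, neighbours in the Acsl4 order overlapped in their intervals throughout.

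Lpcat3 was highest in mesenchymal-like cells, at 31.4 CPM titled Blood and 35.8 CPM titled Control, with macrophage-like cells at 28.3 CPM titled Blood and 25.8 CPM titled Control. It was lowest in migratory DC-like cells, at 8.89 CPM (5 UMIs) titled Blood and 8.22 CPM (6 UMIs) titled Control, below the 10 CPM minimum. In neutrophil-like cells 55 UMIs gave 17.1 CPM titled Blood and 7 UMIs gave 26.9 CPM titled Control. Their ratio of 0.635 had a counting interval of 0.288 to 1.65, so neither direction was detectable there.

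Ptgs2 encodes cyclooxygenase-2, which makes prostaglandin H2 from arachidonic acid. Its level was highest in neutrophil-like cells, at 2315 CPM titled Blood and 1937 CPM titled Control, a ratio of 1.20 (1.09 to 1.31). Monocyte-like cells followed at 331 CPM titled Blood and 282 CPM titled Control, then mesenchymal-like cells at 135 CPM titled Blood and 114 CPM titled Control. Macrophage-like cells were at 80.5 CPM titled Blood and 75.7 CPM titled Control, a ratio of 1.06 (1.03 to 1.10), and overlapped with conventional DC-like cells in both libraries. T cell-like cells, at 9.65 CPM titled Blood and 3.77 CPM titled Control, and NK cell-like cells, at 7.18 CPM titled Blood and 5.41 CPM titled Control, were below the 10 CPM minimum. Over the alternatives the log2 ratio of Ptgs2 ran from -0.07 to 0.69 in neutrophil-like cells, from -0.01 to 0.87 in monocyte-like cells and from -0.13 to 0.28 in macrophage-like cells, so its direction turned in each. After thinning, Ptgs2 was seen in 65.1% of neutrophil-like cells titled Blood and in 59.7% of those titled Control.

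Set out over the 8 classes, none of the measured members was past 1.5-fold in any class. All 7 members were measured in monocyte-like and macrophage-like cells, 6 in neutrophil-like and conventional DC-like cells, 5 in mesenchymal-like and migratory DC-like cells and 4 in T cell-like and NK cell-like cells. Of all measured genes, 1.39% were past 1.5-fold in either direction in macrophage-like cells and 1.47% in monocyte-like cells. The same share was 1.88% in T cell-like, 4.59% in NK cell-like, 2.85% in conventional DC-like and 2.62% in mesenchymal-like cells. It was 35.0% in neutrophil-like and 21.2% in migratory DC-like cells, classes with 129 and 74 cells titled Control. The farthest log2 ratios of members were -0.53 for Lpcat3 in neutrophil-like cells, 0.50 for Slc7a11 in conventional DC-like cells and 0.45 for both Slc7a11 in monocyte-like and Acsl4 in NK cell-like cells.

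**Figure D2:**
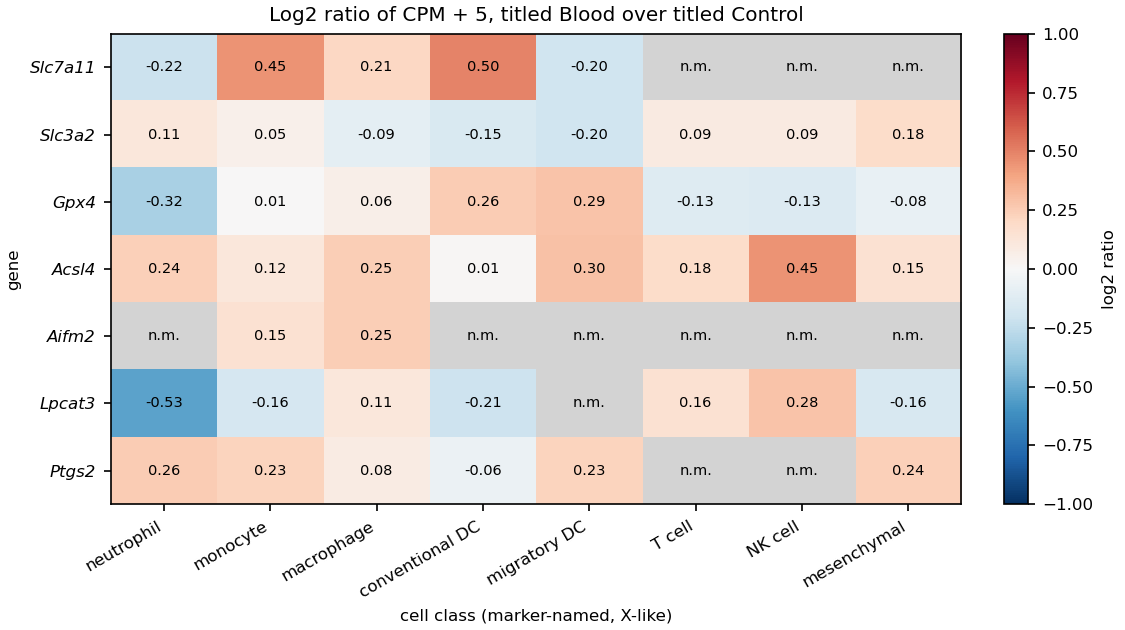
Heat map of the log2 ratio of CPM plus 5, titled Blood over titled Control, with the 7 genes as rows and the 8 cell classes as columns, red where higher titled Blood, blue where lower, and grey with n.m. where the gene was not measured. The measured values run from -0.53 for Lpcat3 in neutrophil-like cells to 0.50 for Slc7a11 in conventional DC-like cells.

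Macrophage-like cells were not uniform in Slc7a11. Over their 10 clusters the highest level was 15.4 times the lowest titled Blood and 29.7 times titled Control. The cluster led by Npl, Ccl8 and Folr2 was lowest, at 22.8 CPM titled Blood and 19.2 CPM titled Control. The cluster led by Cd36, Hmox1 and Mmp12 (cluster 7) was highest, at 351 CPM titled Blood and 570 CPM titled Control. A cluster led by Cxcl9 (cluster 9) was at 218 CPM titled Blood and 171 CPM titled Control. Since the clusters were made from these same cells, their levels are a description of the class and not a test. With doublets or shallow copies kept, 52 levels of Slc7a11 and Ptgs2 in matched clusters moved beyond their counting intervals and 28 did not.

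**Figure D3:**
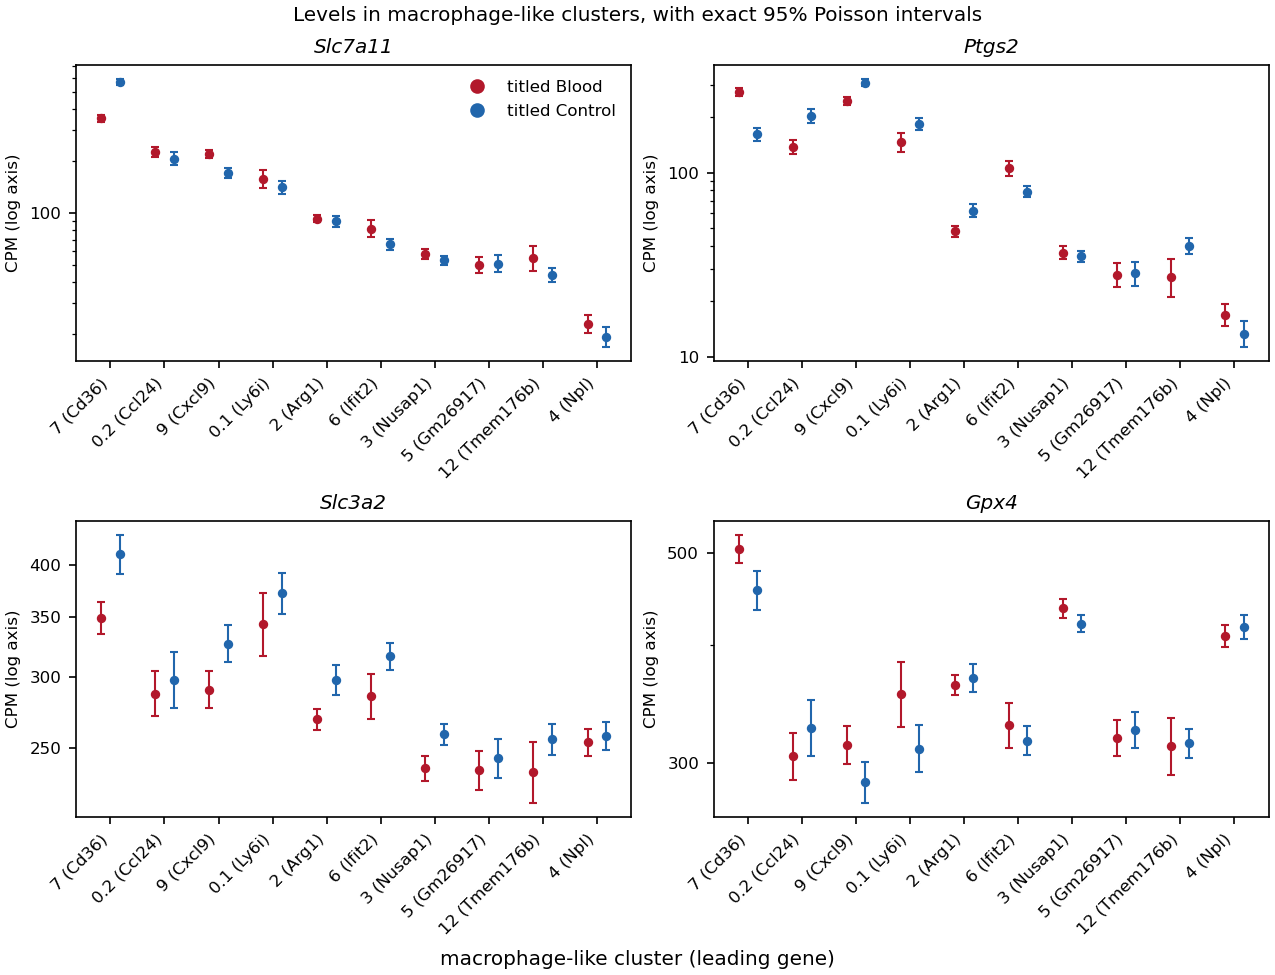
Level of Slc7a11, Ptgs2, Slc3a2 and Gpx4 (CPM, log axis) in the 10 macrophage-like clusters, each named with its leading gene, titled Blood left of titled Control, with exact 95% Poisson intervals. Slc7a11 ranges from 22.8 CPM titled Blood and 19.2 CPM titled Control in cluster 4 to 351 CPM titled Blood and 570 CPM titled Control in cluster 7, while Gpx4 and Slc3a2 vary less.

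In cluster 7, Slc7a11 and Ptgs2 differed between libraries in opposite directions. The cluster held 705 cells titled Blood and 299 cells titled Control. Slc7a11 was lower in the library titled Blood, at 351 CPM against 570 CPM titled Control, a ratio of 0.615 (0.58 to 0.653), 1 of 7 members lower beside 0.797% of the measured genes. Ptgs2 was higher, at 274 CPM titled Blood and 162 CPM titled Control, a ratio of 1.69 (1.54 to 1.86), 1 of 7 members higher beside 1.61% of the measured genes. Ptgs2 was seen in 48.4% of cells titled Blood and 42.8% titled Control, with at most 103 and 33 UMIs in a cell. The tenth of cells with the most Ptgs2 held 57.1% of its UMIs titled Blood and 60.1% titled Control. The interval of the ratio does not cover this spread between cells. Slc3a2, at 350 CPM titled Blood and 412 CPM titled Control, and Gpx4, at 505 CPM titled Blood and 456 CPM titled Control, stayed within 1.5-fold.

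Other values moved with the Slc7a11 difference in cluster 7. Hmox1, the haem oxygenase that releases iron from haem, was at 2924 CPM titled Blood and 4604 CPM titled Control. The median depth was 7243 UMIs per cell titled Blood and 10934 titled Control. The 8 neutrophil markers summed to 559 CPM titled Blood and 323 CPM titled Control, and neutrophil RNA in the proportion of S100a8 and S100a9 would carry 5.86 CPM of Slc7a11 and 8.60 CPM of Ptgs2 titled Blood and 1.30 and 1.37 CPM titled Control. The part of Hmox1 and of depth in the Slc7a11 ratio was not tested.

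Split further, the 5 sub-clusters of cluster 7 each had a lower Slc7a11 level titled Blood. Numbered 0 to 4, they were at 305, 508, 250, 230 and 507 CPM titled Blood, against 312, 739, 370, 581 and 1061 CPM in the same order titled Control. The log2 ratios ran from -1.32 to -0.03, with 2 of 5 sub-clusters past 1.5-fold and the intervals of sub-cluster 0 overlapping. Ptgs2 was higher titled Blood in all 5, with log2 ratios from 0.13 to 0.77 and 2 of 5 past 1.5-fold, and its intervals overlapped in sub-clusters 0 and 3. Its highest level was in sub-cluster 1, led by Vcan, Ppbp and Ednrb, at 565 CPM titled Blood and 330 CPM titled Control. That sub-cluster held 223 of the 705 cells titled Blood and 30 of the 299 titled Control, so the whole cluster joined sub-clusters in unlike shares. With the sub-clusters at equal weight, Slc7a11 was at 360 CPM titled Blood and 613 CPM titled Control (log2 ratio -0.76), Hmox1 at 3056 CPM titled Blood and 4856 CPM titled Control (log2 ratio -0.67), and Ptgs2 at 304 CPM titled Blood and 203 CPM titled Control (log2 ratio 0.57). At that weight Slc7a11 stayed past 1.5-fold and Ptgs2 did not.

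**Figure D4:**
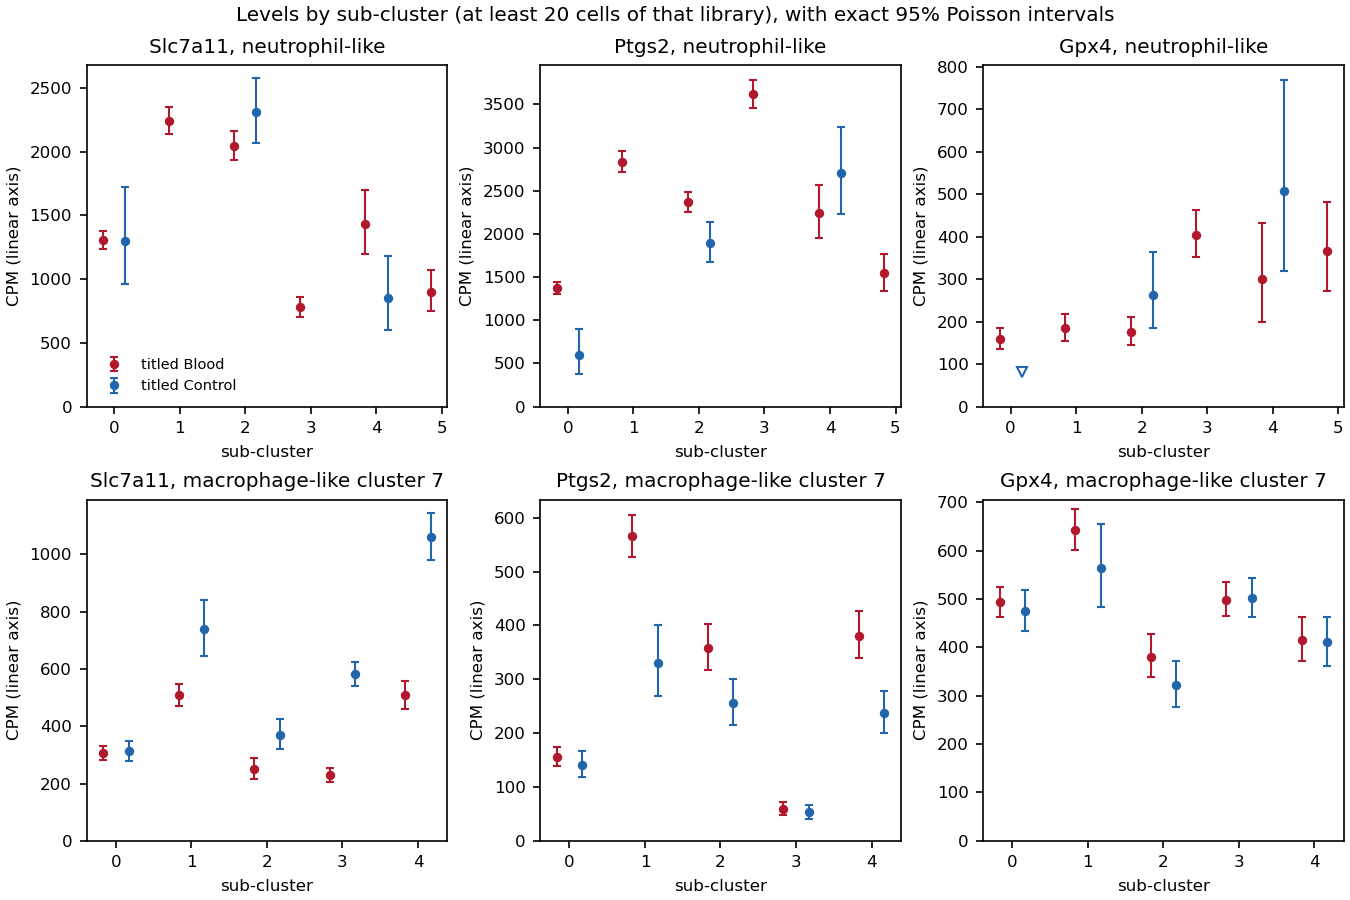
Slc7a11, Ptgs2 and Gpx4 (CPM, linear axis) in the sub-clusters of neutrophil-like cells (upper row) and of macrophage-like cluster 7 (lower row) with at least 20 cells, titled Blood left of titled Control, with exact 95% Poisson intervals and a triangle at the 3-UMI limit where a library had 0 UMIs. In cluster 7, Slc7a11 lies lower and Ptgs2 higher titled Blood in each of the 5 sub-clusters.

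Ptgs2 also differed in a cluster that the marker rule left unnamed. This cluster 13, led by Retnla, Ednrb and Lyve1, held 428 cells titled Blood and 274 cells titled Control. Its best marker score was that of macrophages, at 0.74, with monocytes next at 0.34. It stayed outside the macrophage-like class because another list held 1 of its 10 leading genes and the macrophage list 0. Ptgs2 was at 212 CPM titled Blood and 59.4 CPM titled Control, a ratio of 3.58 (3.0 to 4.28), 1 of 7 members higher beside 4.06% of the measured genes. At least 1 UMI of Ptgs2 was seen in 29.7% of these cells titled Blood and in 22.3% of those titled Control. The tenth of cells with the most Ptgs2 held 71.9% of its UMIs titled Blood and 77.0% titled Control. The interval of the ratio does not cover this spread between cells. Slc7a11 was low there, at 26.5 CPM titled Blood and 28.4 CPM titled Control, and Gpx4 was at 541 CPM titled Blood and 388 CPM titled Control, a ratio of 1.39. In the same cluster the 8 neutrophil markers summed to 291 CPM titled Blood and 59.0 CPM titled Control, of which S100a8 and S100a9 gave 149 CPM titled Blood and 6.84 CPM titled Control. Neutrophil RNA in that proportion would carry 7.33 CPM of Ptgs2 titled Blood and 0.239 CPM titled Control. Hmox1 was at 2341 CPM titled Blood and 1190.3 CPM titled Control, and the median depth was 5431 UMIs per cell titled Blood and 7780.5 titled Control. The part of Hmox1 and of depth in the Ptgs2 ratio was not tested.

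The monocyte-like class joined unlike clusters. Cluster 0.0 held 481 cells titled Blood and 257 titled Control, with Slc7a11 at 347 CPM titled Blood and 319 CPM titled Control and Ptgs2 at 486 CPM titled Blood and 467 CPM titled Control. Cluster 16 held 260 cells titled Blood and 215 titled Control, with Slc7a11 at 81.5 CPM titled Blood and 44.9 CPM titled Control, a ratio of 1.81 (1.35 to 2.45). Lpcat3 was lower in cluster 16, at 19.4 CPM titled Blood and 32.4 CPM titled Control (log2 ratio -0.62), and these were 2 of the 7 members past 1.5-fold, beside 5.98% of the measured genes in either direction. The neutrophil genes S100a8 and S100a9, which monocytes also make, summed in cluster 16 to 237 CPM titled Blood and 2117 CPM titled Control. In neutrophil proportion they would carry 7.98 CPM of Slc7a11 titled Blood and 70.1 CPM titled Control, the last above the 44.9 CPM seen, so the proportion overstates carried RNA there. Its part in these ratios was not tested.

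Neutrophil-like cells fell into 6 sub-clusters, of which 3 held at least 20 cells in each library. Titled Blood, Slc7a11 ranged from 780 CPM in sub-cluster 3 to 2242 CPM in sub-cluster 1, and Ptgs2 from 1374 CPM in sub-cluster 0 to 3615 CPM in sub-cluster 3. In that library the sub-cluster with the least Slc7a11 was therefore the one with the most Ptgs2. It also held the most Gpx4, 404 CPM, against 158 CPM in sub-cluster 0. Sub-cluster 5, with 27 cells titled Blood, was at 897 CPM of Slc7a11 and 366 CPM of Gpx4, and its intervals overlapped with those of sub-cluster 3 for both genes. Titled Control, the most Ptgs2 (2701 CPM) and the most Gpx4 (508 CPM) were in sub-cluster 4, with 21 cells. Sub-clusters 1 and 3 held only 13 and 4 cells titled Control. Over the 3 sub-clusters with at least 20 cells in each library, which leave these out, and at equal weight, Slc7a11 was at 1595 CPM titled Blood and 1489 CPM titled Control. Ptgs2 was at 1995 CPM titled Blood and 1733 CPM titled Control, and Gpx4 at 211 CPM titled Blood and 257 CPM titled Control. The Gpx4 mean hides opposite directions, with log2 ratios from -0.75 to 5.03, 1 past 1.5-fold higher and 1 lower. In sub-cluster 0 titled Control, 20 cells held 0 UMIs of Gpx4, where the exact interval reaches 99.9 CPM, against 158 CPM titled Blood.

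Detection of the members cell by cell was compared within thinned neutrophil-like cells. Titled Blood, Ptgs2 was seen in 67.1% of cells with Slc7a11 and in 62.2% of cells without it, and titled Control in 61.1% with and 57.7% without. Gpx4 was seen titled Blood in 15.7% (13.4 to 18.1) of cells with Slc7a11 and 21.2% (18.0 to 24.6) of cells without. Titled Control it was seen in 23.6% (14.4 to 35.1) of 72 cells with and 17.3% (8.23 to 30.3) of 52 cells without. The intervals overlapped narrowly titled Blood and widely titled Control, so no order was resolved titled Control. Slc3a2 was seen titled Blood in 39.9% of cells with Slc7a11 and in 40.9% without.

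The wider pathway was read from 8 lists of 129 genes beside the members, covering cystine and glutathione, selenoproteins, radical traps, lipid acylation, lipid oxidation, prostanoids, iron handling and regulators. In macrophage-like cells 87 of the 129 were measured, and 1 was higher and 0 were lower, against 41 higher (0.528%) and 67 lower (0.862%) among 7772 measured genes. The exception was Scd2, a stearoyl-CoA desaturase that makes monounsaturated fatty acids, at 81.5 CPM titled Blood and 48.7 CPM titled Control, a ratio of 1.67 (1.61 to 1.74). The median log2 ratio was 0.003 over the lists and 0.012 over all measured genes.

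In neutrophil-like cells 77 list genes were measured, and 15 were higher and 12 lower, beside 20.8% higher and 14.1% lower of all measured genes, and both counts were near these shares. The lists' median log2 ratio was -0.11 and that of all measured genes 0.06. Under clustering of each library alone the counts turned to 7 higher and 21 lower, and with doublets kept 24 were higher. Many of the called genes had 10 or fewer UMIs titled Control. The class also joined sub-clusters in unlike shares. Of its 1774 cells titled Blood, 606 were in sub-cluster 0 and 330 in sub-cluster 2. Of its 129 cells titled Control, 20 were in sub-cluster 0 and 71 in sub-cluster 2. The part of this mix in the ratios of the whole class was not tested. Of 11 measured genes of cystine and glutathione metabolism, 2 were higher and 3 lower, and values are given here for the 3 lower genes only. Gclm, the modifier subunit of glutamate-cysteine ligase, was at 46.0 CPM titled Blood and 131 CPM titled Control, a ratio of 0.352 (0.241 to 0.527). Gclc, the catalytic subunit of that ligase, was at 14.3 CPM titled Blood and 38.5 CPM titled Control, where 10 UMIs were counted. The ratio of Gclc was 0.372 (0.185 to 0.826). Txnrd1, the cytosolic thioredoxin reductase, was at 135 CPM titled Blood and 285 CPM titled Control, a ratio of 0.473 (0.369 to 0.613).

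The counts of the other lists are for neutrophil-like cells too, where 20.8% of all measured genes were higher and 14.1% lower. No list was tested against these shares. Of 12 measured selenoprotein and peroxide reduction genes, 1 was higher and 4 lower, among them Msrb1, a methionine sulfoxide reductase, at 1397 CPM titled Blood and 2264 CPM titled Control. Of 14 measured regulators, 5 were higher and 0 lower, among them Atf4, a transcription factor of the amino acid response, at 645 CPM titled Blood and 385 CPM titled Control, a ratio of 1.68 (1.37 to 2.07). Trib3, one of its targets, was at 38.9 CPM titled Blood and 15.4 CPM titled Control, where 4 UMIs were counted and the interval of the ratio, 0.962 to 9.41, holds 1. Of the 5 higher regulators, values are given for Atf4 and Trib3 only. Of 11 measured acylation and desaturation genes, 4 were higher and 2 lower, and Tmem189, which makes the vinyl ether bond of plasmalogens, was at 716 CPM titled Blood and 304 CPM titled Control, a ratio of 2.35 (1.88 to 2.98). Of 8 measured lipid oxidation genes, 0 were higher and 2 lower, one being Ncf1, a subunit of the phagocyte NADPH oxidase, at 262 CPM titled Blood and 477 CPM titled Control. The radical trap genes (5 measured) had 1 higher and 1 lower, the prostanoid genes (6 measured) 1 higher, and the iron handling genes (10 measured) 1 higher, with 0 lower in the prostanoid and iron lists.

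Genes with a pattern most like each member were taken by Pearson's r of log2(CPM + 5) over the 16 sums of 8 classes and 2 libraries, among 8757 genes. The 16 points share 2 libraries and differ in depth, and r is a description. For Slc7a11 the closest were Gabarap (r = 0.990), Ptafr (0.986) and Il1rn (0.978), and without the neutrophil-like sums Gabarap kept r = 0.982. For Ptgs2 they were Gng5, Tnfaip2 and Upp1 (0.962 each). For Slc3a2 they were Apbb1ip (0.966), Zkscan6 (0.956) and Lpin2 (0.954), and for Gpx4 Prmt2 (0.923), Tpm1 (0.912) and Mcrip1 (0.902).

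For Acsl4 the closest were Srf (0.909), Top1 and Nkap (0.873 each), for Aifm2 Magt1 (0.881), Lepr and Rgl1 (0.850 each), and for Lpcat3 Srek1ip1 (0.918), Mfsd5 (0.880) and Cisd2 (0.879). Between members, Slc7a11 and Ptgs2 had r = 0.886, and 0.777 without the neutrophil-like sums. Slc7a11 and its partner Slc3a2 had r = 0.735, and 0.425 without those sums, and Slc7a11 and Gpx4 had r = -0.504, and -0.249 without them.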

How the data were processed

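Per the labels' protocols, tumours were cut up, dissociated with collagenase B plus DNase I and treated to lyse erythrocytes. The authors deposited raw UMI counts per gene and barcode, and the submitters' processing notes name Cell Ranger 3.1.0 and the build mm10. The annotation release, the barcode calling setting and any sort were not given in the sources used here. The 7 genes and all lists were chosen with earlier results of these data known. No sequence of the proteins was used here.

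Kept cells had at least 300 genes and 500 UMIs, with a mitochondrial share of at most 20% (Python 3.11.15, scanpy 1.11.5). Scrublet marked 2.39% of cells titled Blood and 1.75% of cells titled Control, below the expected 9.29% and 7.19%, so doublets remain. Shallow copies of barcodes shared by the libraries (under 1/10 of the other copy's UMIs) were left out, a choice made after seeing the data. Both libraries were clustered together on 2000 variable genes, 30 components and 15 neighbours with Leiden resolution 1 (leidenalg 0.10.2). A cluster was named where the marker score was at least 0.3 with a margin of 0.1 and at least 3 markers were detected, limits set after seeing the data. In addition, no other list could hold more of the cluster's 10 leading genes than its own list. A shallow cluster also needed a leading gene from its own list.

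UMIs were summed per class and library. Intervals are exact Poisson, Clopper-Pearson and conditional binomial (scipy 1.17.1), and no p-value was computed. Beside all 7 members, the text names up to 4 list genes per list and class past 1.5-fold by size of log2 ratio, with up to 3 genes of highest r per member. Not every list gene past 1.5-fold is named. Upstream sequences are RefSeq's on GRCm38.p6, and GENCODE M21 held 31011 of the 31053 gene identifiers. The ratio and counting steps were tested on simulated data. Alternatives varied doublets, resolution, clustering per library, cluster weight, cell weight, cell filter, pseudocount, low-value filter, scaling and depth.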

Additional observations from a re-analysis of the deposited data

Results flagged for a closer look

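Slc7a11 differed between libraries in opposite directions in a pair of myeloid clusters. Its log2 ratio, titled Blood over titled Control, was -0.69 in macrophage-like cluster 7, led by Cd36, Hmox1 and Mmp12, and 0.79 in monocyte-like cluster 16. The difference between these clusters was not tested, since each library is 1 sample. In cluster 16 the neutrophil genes S100a8 and S100a9 summed to 237 CPM titled Blood and 2117 CPM titled Control, and their part in the ratio was not tested.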

How the results depend on the processing

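No paired analysis was possible because each group is 1 library. In the sum of all kept cells, 2 members stayed past 1.5-fold under 8 other settings and 0 with neutrophil-like cells left out, an alternative added after seeing the data, as was keeping shallow copies. Over all settings the log2 ratio in that sum ran from 0.28 to 1.58 for Slc7a11 and from 0.22 to 1.81 for Ptgs2. By class, where 0 members were past 1.5-fold, monocyte-like cells had 1 with doublets kept, at resolution 2, with shallow copies kept and after thinning, and 3 with each library clustered on its own. Neutrophil-like cells had 1 at a pseudocount of 1, with doublets kept and with the stricter cell filter, and 2 with own clustering. T cell-like cells had 1 with no low-value filter and by per-cell means, NK cell-like cells 1 by per-cell means and after thinning, and mesenchymal-like cells 1 by per-cell means. Conventional DC-like cells had 1 after thinning and 2 with own clustering, where Slc7a11 turned to a log2 ratio of -1.20. Migratory DC-like cells had 1 with no filter, 2 with own clustering and 2 after thinning, and macrophage-like cells 0 throughout. Of the pathway lists, macrophage-like cells had 0 higher at equal cluster weight and 1 lower with own clustering, and neutrophil-like cells 24 higher with doublets kept, and 7 higher and 21 lower with own clustering. Of the single log2 ratios, 455 moved within the counting interval of the main value and 73 beyond it. Levels of Slc7a11 and Ptgs2 in macrophage-like clusters were matched to clusterings with doublets or shallow copies kept. There, 28 levels stayed within the counting interval and 52 moved beyond it. For shares of neutrophil-like, macrophage-like and monocyte-like cells with a UMI, 4 stayed within the interval after thinning and 38 did not. Slc7a11 turned direction in neutrophil-like (-0.60 to 0.15) and macrophage-like cells (-0.10 to 0.29), and Ptgs2 in cluster 7 fell below 1.5-fold at equal sub-cluster weight (0.57). The cause of these shifts was not tested. Depth limits Aifm2 and Lpcat3 and every value of the 129 neutrophil-like cells titled Control.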
